A study of Mus musculus with 31 samples.

Results

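The comparison described here is ribosome-bound RNA of lumbar dorsal root ganglia from Nav1.8-Cre;L10a-eGFP-fl/fl mice against the same pulldown from Cre-negative L10a-eGFP-fl/fl mice, in the first of 2 batches of mouse ganglia. Its members were chosen by their labels: 4 libraries with Cre (Cre 1 to 4) and 4 without (controls), 8 of the 31 libraries of the series. All of these mice carry the floxed L10a-eGFP allele. The label fl/fl is shared by both genotypes, and only the Nav1.8-Cre allele differs between them. The labels used here give no age, sex or number of mice per library. Of the 4 control columns, 2 carry the same name, so they are called controls a and b and have no replicate number, beside controls 1 and 3. Ganglia of batch 2, with 4 libraries of each genotype, and central axons of batch 1 (lumbar dorsal roots with spinal cord), also with 4 and 4, serve as comparisons. The labels count the libraries as biological replicates.

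Nav1.8 is the voltage-gated sodium channel encoded by Scn10a, and its Cre line marks mostly nociceptors and other small-diameter sensory neurons. Cre switches on a GFP-tagged copy of ribosomal protein L10a, and in translating ribosome affinity purification (TRAP) an antibody to GFP pulls down tagged ribosomes with the messages they carry. A ganglion without Cre should hold no tagged ribosome, so its library shows what the beads and the antibody retain from whole ganglion lysate, which holds neurons, satellite glia, Schwann cells, fibroblasts and blood vessels. In a pulldown, fewer cells of a type and less RNA per cell cannot be told apart.

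The libraries held 7557607 to 11589692 counts with Cre and 7983503 to 9270892 without, but their make-up differed. In the Cre libraries 13324 ± 655 genes (SD, n = 4) had at least 10 counts, and in the controls 6326 ± 1220 (n = 4), or 6789 ± 970 (n = 3) without control 3. The difference of 6998 genes had p = 0.0286 in an exact two-sided permutation test, the smallest p that 4 libraries against 4 can give, and it was 6742 genes after every library was thinned to the smallest total. Controls 1, a and b resembled each other no more than they resembled the Cre libraries: across genes, Spearman's rho was 0.473 to 0.540 among these 3 controls, 0.456 to 0.644 between them and the Cre libraries, and 0.857 to 0.926 among the Cre libraries. Of 3760 genes with a mean of at least 50 CPM (counts scaled to the library total) in the Cre libraries, control 1 had 0 counts for 467, control a for 247 and control b for 458.

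The library labelled control 3 stood apart from the other controls. It had 4934 genes with at least 10 counts but 8819 with 1 to 9, and only 2 of those 3760 genes were at 0. Its rho with the Cre libraries was 0.762 to 0.772, above its 0.514 to 0.644 with the other controls. Mitochondria-encoded genes took 0.0274% of its counts, within the 0.0184% to 0.262% of the Cre libraries and below the 0.531% to 2.08% of the other controls. A normalisation factor of 0.0547 (TMM, edgeR's trimmed-mean scaling) was given to it when all 8 libraries were fitted, against 1.30 to 1.78 for the other 7. By rho it was nearer to the Cre libraries than to the controls it is labelled with; a swapped, a mixed and a failed library cannot be told apart here. It was left out of the fit described first, a choice made with earlier results of these data known, and main counts are also given with it under 2 scalings: TMM, and library totals alone, which were chosen for genes and lists after the data were seen. No sample of the comparison was a copy of another.

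**Figure D1:**
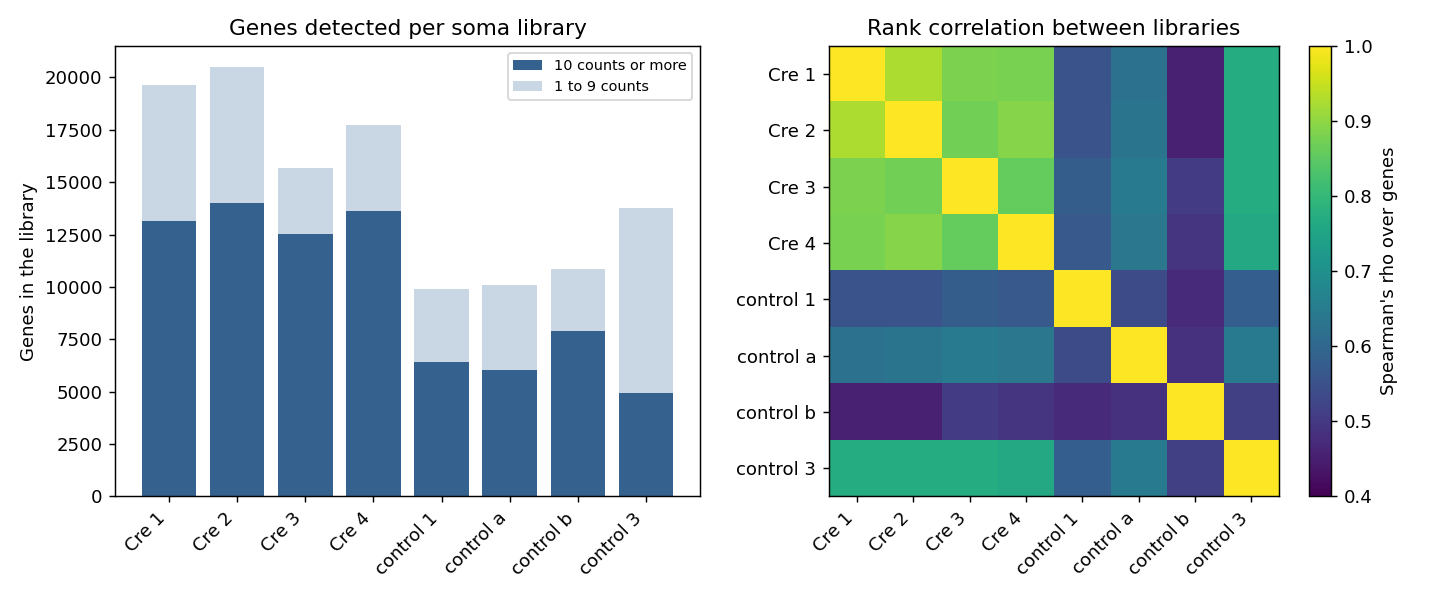
Left, number of genes with at least 10 counts (dark) and with 1 to 9 counts (light) in each batch 1 soma library. Right, Spearman's rho across genes for each pair of libraries, where the Cre libraries reach 0.857 to 0.926 among themselves and control 3 reaches 0.762 to 0.772 with them.

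Without control 3, 3094 of 12741 genes tested (24.3%) differed between Cre and control ganglia at a Benjamini-Hochberg adjusted p under 0.05 in edgeR's quasi-likelihood test. Higher in Cre were 2977 genes (23.4%) and lower 117 (0.918%). Most of the higher genes were genes that the controls lacked: 2732 of the 2977 had at most 3 counts in each of the 3 controls, and 1756 had 0 in all of them. Only 39 of the higher genes averaged at least 10 CPM in the controls, against 113 of the 117 lower genes. With all 8 libraries the count depended on the scaling. Under TMM 516 of 11667 genes (4.42%) were called, 510 higher (4.37%) and 6 lower (0.0514%), and 515 of these were among the 3094 with the same direction. Scaled by library totals, the same 8 libraries gave 2244 (19.2%), 2224 higher (19.1%) and 20 lower (0.171%), with 2177 among the 3094, and limma-voom with sample quality weights gave 2470, with 2129 among them. DESeq2, on the 7 libraries, called 3705 higher and 804 lower, and without control b edgeR called 4743 genes. The biological coefficient of variation was 1.34 without control 3 and 1.53 with it.

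Control 3 was below every Cre library for most called genes of both directions. In 2724 of the 2977 higher genes it too was below every Cre library, though it held at least 1 count for all but 858 of them. Of the 117 lower genes, controls 1, a and b were all above every Cre library in 105, but control 3 was above every Cre library in 19, within the Cre range in 16 and below it in 82. Over all tested genes, the 4 Cre libraries were above all 4 controls for 3712 (29.1%) and below all 4 for 51 (0.4%). Against controls 1, a and b alone these counts were 4139 (32.5%) and 301 (2.36%). Control 3 was thus below every Cre library in 3712 of those 4139 genes, called or not. The 2724 are therefore no trait of the called genes alone. The median log2 fold change of all genes was 0.37 without control 3, 0.03 with RLE scaling (the median-ratio scaling of DESeq2) and, with control 3, -0.45 under TMM and 0.36 by library totals, so fold changes below are relative to a centre that moves with the scaling.

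The driver gene and the gene of the tagged protein did not separate the genotypes. Scn10a (chromosome 9, 119608456 to 119719322, minus strand, GRCm38) was at 312, 461, 362 and 505 CPM in Cre 1 to 4, and at 383, 625 and 89.2 CPM in controls 1, a and b, with 33.4 in control 3. Its log2 fold change was 0.02 (SE 0.64, adjusted p = 0.986), and controls 1 and a lay within and above the Cre range. The sign was negative with RLE scaling, with DESeq2 and with all 8 libraries under TMM (0.52 by library totals). Rpl10a (chromosome 17, 28328471 to 28331033, plus strand) was at 40.5, 40.6, 44.2 and 13.8 CPM with Cre, and at 1.47, 60.2 and 0 CPM in controls 1, a and b, with 0.324 in control 3. Its log2 fold change was 0.59 (SE 1.93, adjusted p = 0.889). Whether the tagged copy is counted under this gene is not given in the sources used here.

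Ccnd2 and Fzd2 were lower in the Cre libraries. Ccnd2 encodes cyclin D2, which pairs with CDK4 and CDK6 to move cells out of G1, and lies on chromosome 6 (127125162 to 127152193, minus strand). It was at 9.94, 28.6, 6.56 and 43.5 CPM in Cre 1 to 4 and at 583, 327 and 575 CPM in controls 1, a and b. Those 3 controls were above every Cre library, while control 3, at 10.7 CPM, was within the Cre range. The log2 fold change was -4.69 (SE 0.81, adjusted p = 0.00703), and with control 3 in the fit -4.57 (adjusted p = 0.0365) under TMM and -4.11 (adjusted p = 0.0370) by library totals. Of its exonic bases 7.87% overlap exons of the opposite strand; whether strand was used in counting is not given in the sources used here.

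Fzd2 encodes a Frizzled receptor for Wnt ligands and lies on chromosome 11 (102604396 to 102608058, plus strand). It was at 1.35, 5.36, 1.03 and 12.4 CPM with Cre and at 55.0, 286 and 582 CPM in controls 1, a and b. Control 3 held 2.59 CPM, again within the Cre range. Its log2 fold change was -6.25 (SE 1.33, adjusted p = 0.00848), and with control 3 -5.96 (adjusted p = 0.0292) under TMM and -5.55 (adjusted p = 0.0387) by library totals.

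Bc1 was the member of the noncoding list with all 4 controls above all 4 Cre libraries. It is a short neuronal RNA made by RNA polymerase III that travels into dendrites and axons and acts as a repressor of translation. Its GENCODE transcript (GRCm38, chromosome 7, 144914470 to 144914637, plus strand, 168 bases) is shown because it is the named member with no protein product and an A-rich middle; capitals mark its longest run of A, 23 bases.

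Bc1: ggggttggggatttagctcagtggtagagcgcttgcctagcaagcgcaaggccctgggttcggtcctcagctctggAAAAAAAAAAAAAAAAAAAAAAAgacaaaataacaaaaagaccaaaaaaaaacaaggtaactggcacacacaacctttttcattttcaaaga

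Bc1 was at 0.207, 1.07, 2.42 and 3.18 CPM in Cre 1 to 4 and at 25.9, 48.7 and 38.3 CPM in controls 1, a and b, with 41.0 in control 3. In counts this was 2 to 28 per Cre library and 211 to 415 per control. The log2 fold change was -4.63 (SE 1.29, adjusted p = 0.0287) without control 3. With it the value was -7.59 (adjusted p = 0.0247) under TMM and -4.49 (adjusted p = 0.116) by library totals. Leaving out any 1 Cre library ended the call, with adjusted p from 0.0748 to 0.176. Of the 57 named genes that were called, Ccnd2, Fzd2 and Bc1 were the 3 still called with all 8 libraries under TMM, and 30 were still called by library totals, Ccnd2 and Fzd2 among them.

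Of the higher genes that did not overlap with any control, the 8 named for their adjusted p, 0.00703, were absent from controls 1, a and b. Ties at that value were broken by the larger fold change, which favours genes at 0 in the controls. Sult4a1 shared the adjusted p, and its unadjusted p in edgeR was 3.62e-06 against 0.000478 for Tmem109. Tmem109, a membrane protein gene, was at 94.2, 121, 56.0 and 125 CPM with Cre and at 0 in those 3 controls, with 2.697 CPM in control 3. Against a floor of 3 counts in each of controls 1, a and b this was at least 272-fold higher. The bounds given here leave out control 3, which held 25 counts of Tmem109. Mrgpra1, a Mas-related receptor gene of nociceptors that has close paralogs, was at 65.6 to 104 CPM with Cre and at least 250-fold higher. Tspan14, a tetraspanin gene, was at 48.5 to 137 CPM and at least 245-fold higher. Tradd, an adaptor of tumour necrosis factor receptors, was at 47.5 to 122 CPM and at least 213-fold higher. Tnfaip8, Rras (a small GTPase), Yrdc (a tRNA modification enzyme) and Mpi (mannose phosphate isomerase) had Cre ranges of 55.0 to 91.9, 43.3 to 81.9, 41.9 to 82.2 and 38.9 to 78.5 CPM, and were at least 154-fold to 181-fold higher. For Yrdc 24.8% and for Tnfaip8 12.7% of the exonic bases overlap the opposite strand. All 8 genes were at 0 counts in 3 controls and at 0.324 to 2.697 CPM in control 3. With control 3 in the fit none of the 8 was called under TMM (adjusted p from 0.281 to 0.587), and all but Tmem109 (adjusted p = 0.0503) were called by library totals. In batch 2 the controls held all 8, at means of 28.8 (Tnfaip8) to 41.7 CPM (Yrdc). Their log2 fold changes there were 0.68 (Tmem109) to 1.91 (Tnfaip8), and none was called. The difference between the batches was called for all 8 in edgeR (adjusted p from 0.000484 to 0.00511). The bounds therefore describe batch 1 alone.

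Higher genes at high level had counts in every control, though as few as 5 for Lxn in control a. Sult4a1, a sulfotransferase family gene of neurons, had 1551, 1473, 1279 and 1733 CPM with Cre and 140, 110 and 130 CPM in controls 1, a and b, with 16.1 in control 3. The groups did not overlap, and control 3 lay well below the other controls. Its log2 fold change was 3.44 (SE 0.32, adjusted p = 0.00703), and with control 3 2.74 (adjusted p = 0.334) under TMM and 3.90 (adjusted p = 0.0018) by library totals.

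Anxa5, a calcium-dependent phospholipid-binding annexin, was at 2899, 2439, 2372 and 1163 CPM with Cre and at 877, 516 and 483 CPM in controls 1, a and b, with 543 in control 3. It rose by 1.75 on the log2 scale (SE 0.40, adjusted p = 0.0112). Cox6b1, a subunit of cytochrome c oxidase, was at 1818 to 2350 CPM with Cre and 358 to 1118 CPM in the 4 controls (log2 fold change 1.45, adjusted p = 0.0169). Coa3, an assembly factor of the same enzyme, was at 327 to 572 CPM against 27.7 to 101 (log2 fold change 2.36, adjusted p = 0.0135).

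Lxn, a carboxypeptidase inhibitor, was at 368 to 865 CPM with Cre against 0.587 to 65.6 in the controls (log2 fold change 4.84, adjusted p = 0.0295). Hpcal1, a neuronal calcium sensor, was at 425 to 684 CPM against 6.26 to 166 (1.93 on the log2 scale, adjusted p = 0.0235). Selenok, a selenoprotein of the endoplasmic reticulum, was at 432 to 839 CPM against 104 to 283 (1.8, adjusted p = 0.0229), and Adap1, a GTPase-activating protein for Arf6, at 354 to 622 CPM against 20.7 to 342 (2.53, adjusted p = 0.0410). These 8 genes were chosen as the most abundant called genes without overlap. With control 3 in the fit under TMM none was called, and the sign was negative for Anxa5 (-0.99), Cox6b1 (-2.07), Selenok (-1.94) and Adap1 (-2.42). By library totals all 8 were positive, and Sult4a1, Anxa5, Lxn and Coa3 were called.

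Lower genes without overlap were named by adjusted p or by abundance in the controls, so high control levels follow in part from the choice. Sparc, a collagen-binding matrix protein of glia, fibroblasts and vessels, was at 84.7, 268, 81.4 and 300 CPM with Cre and at 1597, 1719 and 2184 CPM in controls 1, a and b, with 451 in control 3. It fell by 3.54 on the log2 scale (SE 0.52, adjusted p = 0.00703). Fth1, the ferritin heavy chain, was at 357, 586, 371 and 172 CPM with Cre and at 2321, 2045 and 1909 CPM in the 3 controls, with 852 in control 3 (log2 fold change -2.61, SE 0.42, adjusted p = 0.00703). Here control 3 lay between the other controls and the Cre libraries.

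Ybx1 and Ybx3, cold-shock-domain proteins that bind messenger RNA, were at 143 to 236 and 72.0 to 167 CPM with Cre, against 506 to 1532 and 332 to 924 CPM in the 4 controls. Their log2 fold changes were -2.57 (adjusted p = 0.00703) and -2.17 (adjusted p = 0.0208). Ptn, the growth factor pleiotrophin, was at 86.5 to 279 CPM against 494 to 870 (log2 fold change -2.30, adjusted p = 0.0116). Itm2a, a transmembrane protein gene, was at 10.6 to 99.6 CPM against 276 to 813 (-3.08, adjusted p = 0.0204).

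The set also held genes of the neuronal and general cytoskeleton. Nefl, the light neurofilament subunit of myelinated and other neurons, was at 964, 1548, 1548 and 2236 CPM with Cre and at 2846, 6880 and 2855 CPM in controls 1, a and b, with 2831 in control 3. It fell by 1.60 (SE 0.39, adjusted p = 0.0162). Tpm1, a tropomyosin, was at 322 to 613 CPM against 704 to 1597 (log2 fold change -1.36, adjusted p = 0.0430), and Dst, a cytoskeletal linker, at 138 to 274 CPM against 448 to 986 (-1.86, adjusted p = 0.0249). Recql, a DNA helicase, was at 5.06 to 7.81 CPM against 50.2 to 323 (-4.43, adjusted p = 0.0151). Overlap with exons of the opposite strand covered 37.7% of the exonic bases of Recql and 32.8% of those of Nefl, so reads of their antisense partners may be included. With control 3 in the fit these 10 lower genes had adjusted p from 0.0512 (Recql) to 0.424 (Nefl) under TMM. By library totals Sparc, Fth1, Ybx1, Ybx3, Itm2a, Nefl and Recql were called, and Ptn, Dst and Tpm1 were not (adjusted p from 0.0684 to 0.168).

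Leaving out 1 of the 7 libraries in turn ended the call of 22 of the 57 named genes that were called, 34 stayed called each time, and 1, Lyz2, was filtered out without Cre 2, 3 or 4. Ccnd2, Fzd2, Sult4a1, Sparc, Fth1 and Ybx1 were among the 34. Besides Bc1, leaving out Cre 1, 2, 3 or 4 each ended the calls of Cox6b1, Selenok, Adap1 and Lxn. Leaving out Cre 1, 2 or 3 each ended those of Anxa5, Coa3, Hpcal1, Recql, Dst and Tppp3. Without Cre 1 Ybx3 (adjusted p = 0.0599) and Itm2a (0.0512) were not called, and without control a Nefl (0.0584) was not. The other 8 were Tpm1, Meg3, Atp5g3, Uqcrq, Pmp22, Col1a2, Col3a1 and Apoe, whose calls ended without 2 to 5 of the libraries, with adjusted p up to 0.118. Adap1 and Lxn also lost the call without control b, Dst without control a and Tppp3 without control 1.

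**Figure D2:**
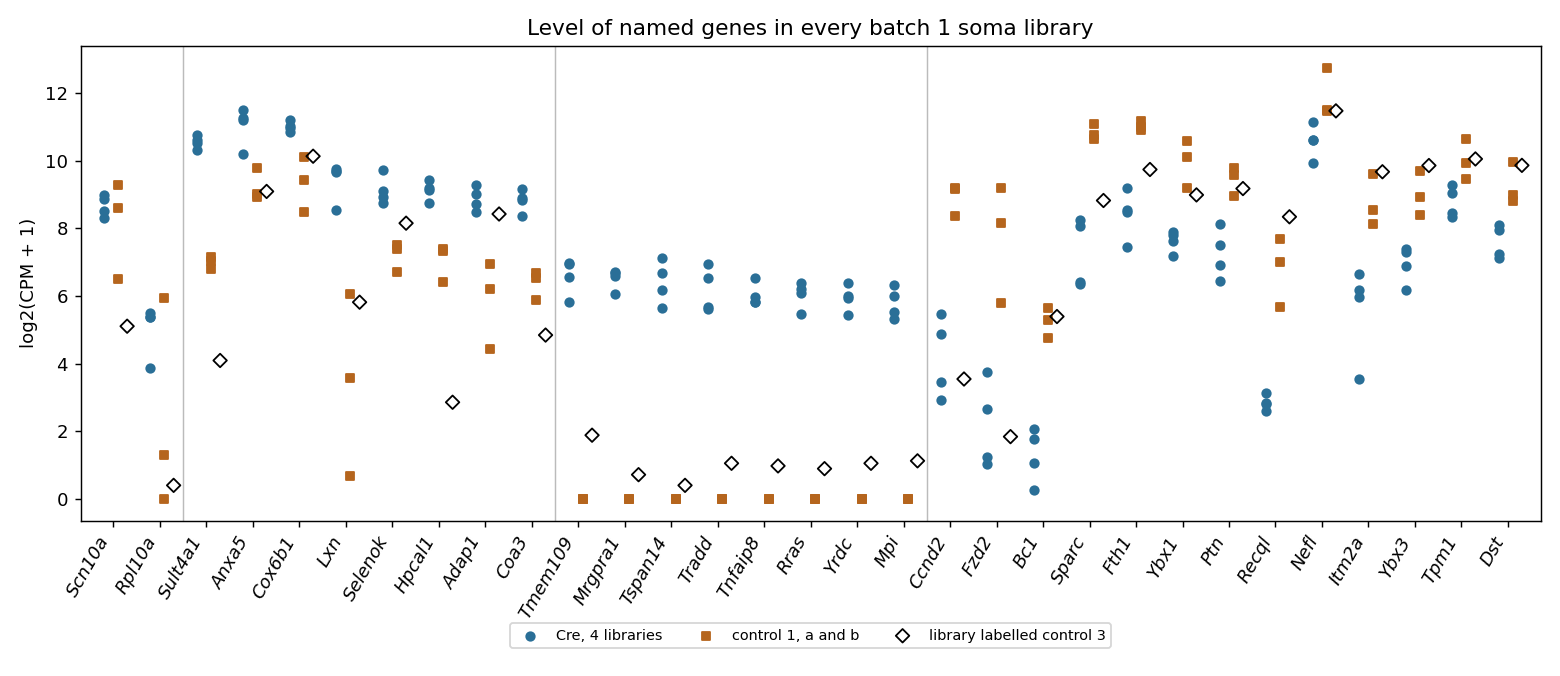
Level of each named gene in the 8 batch 1 soma libraries as log2(CPM + 1), with Cre libraries as blue circles, controls 1, a and b as brown squares and control 3 as open diamonds. Vertical lines separate the driver and tagged genes, abundant higher genes, higher genes absent from 3 controls, and lower genes; control 3 is with the Cre libraries for Ccnd2 and Fzd2 and with the other controls for Bc1.

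Nociceptor lists held called genes at about the 23.4% of all genes called higher. Of 8 tested nociceptor channels 2 were higher and none was lower, with a list median of 2.35 on the log2 scale, which was 4.11 to 4.68 on leaving out any 1 control and 3.58 with limma-voom; with control 3 it was 1.36 under TMM and 2.82 by library totals. Kcnk18, the potassium channel TRESK, was 1 of them; it was at 16.2 to 61.9 CPM with Cre and at 0 in controls 1, a and b, at least 118-fold higher. The defining channel Scn11a (NaV1.9) was at 108 to 217 CPM with Cre and at 35.1, 567 and 90.6 CPM in the 3 controls, and Trpv1, the capsaicin receptor, at 25.4 to 60.9 against 18.6, 38.4 and 9.52 CPM; both overlapped and neither was called.

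Among 8 peptidergic markers Smr2 and Nts were higher, both at low level (9.06 to 23.3 and 6.73 to 13.2 CPM with Cre, 0 in 3 controls). Calca, the precursor of calcitonin gene-related peptide, was at 1503, 2669, 1035 and 1017 CPM with Cre and at 706, 596 and 200 CPM in controls 1, a and b, with 23.0 in control 3; its adjusted p was 0.0631. Mrgpra3, an itch receptor, and Nppb, a peptide of itch neurons, were the 2 higher genes among 10 tested markers of non-peptidergic neurons and pruriceptors. The median of that list, 0.53, became -0.24 without Cre 4 and, with control 3, -0.66 under TMM and 0.92 by library totals. Nppb had 1 count in Cre 3 (0.0863 CPM) and Mrgpra3 was at 11.2 to 78.8 CPM.

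Among 14 general sensory neuron markers only Tppp3, a microtubule-binding protein, was higher, at 4214, 5274, 5333 and 1958 CPM with Cre against 1192, 1304 and 303 CPM, with 4085 in control 3 (log2 fold change 2.09, adjusted p = 0.0242). Stmn3, a stathmin of neurons, was higher by 1.78 (SE 0.18, adjusted p = 0.00703), at 4564 to 5437 CPM against 1114 to 1679 CPM in controls 1, a and b, but 7556 CPM in control 3, above every Cre library. With control 3 in the edgeR fit neither gene was called. The adjusted p was 0.595 for Tppp3 and 0.570 for Stmn3 under TMM, and 0.186 and 0.486 by library totals. The large-diameter list named next also holds markers of C-fibre low-threshold mechanoreceptors (C-LTMRs). The medians of the general list (0.48), of synaptic vesicle genes (0.39, 0 of 16 called; 2 at an unadjusted p under 0.05) and of the large-diameter list (-1.05, 0 of 10 called; 1 at an unadjusted p under 0.05) became -2.84, -0.60 and -2.61 with control 3 under TMM, but were 0.46, 0.47 and -0.66 by library totals. The large-diameter median was 0.11 with limma-voom or without control 1, and 0.42 without control a, and the synaptic median was -0.10 without control 1. The share of all genes called higher was 23.4%, above that in the general, synaptic and large-diameter lists and near that in the other 3. Most of the 23.4% were genes with at most 3 counts in each of controls 1, a and b. No tested gene of the general, synaptic and large-diameter lists was at that floor. Of genes above it in both groups, 245 of 9752 were called higher. No list was tested as a set.

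Called markers of the main other ganglion cells were lower, where 0.918% of all genes were called lower. With control 3 in the fit none of the markers in the next 3 lists was called, under TMM or by library totals. Of 12 Schwann cell and myelin markers Mbp, Pmp22 and Sox10 were called lower and none was called higher. The median was -2.83, which was -0.79 without control 1 and -0.41 with limma-voom. At an unadjusted p under 0.05 in edgeR, 5 of the 12 were lower and 1 was higher. For 1 marker all 4 Cre libraries were above all 4 controls, as for 29.1% of all genes. Mbp, myelin basic protein, was at 41.5, 151, 49.5 and 423 CPM with Cre and at 2387, 979 and 4223 CPM in controls 1, a and b, with 2.697 in control 3 (log2 fold change -4.18, SE 0.86, adjusted p = 0.00769). Sox10, the transcription factor of glia, was at 3.37 to 46.0 CPM against 82.3 to 397 CPM, with 0.324 in control 3.

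Of 8 fibroblast markers Col1a1, Col1a2 and Col3a1 fell, and all 8 had negative fold changes (median -2.85). Col1a1 was at 44.6, 384, 145 and 498 CPM with Cre and at 1757, 2052 and 2054 CPM in controls 1, a and b, with 89.3 in control 3 (log2 fold change -3.09, SE 0.68, adjusted p = 0.00983). Of 7 tested satellite glia markers Apoe and Atp1b2 fell (median -2.65, which was -1.03 without control 1, -0.60 without control a, 0.71 without control b and -0.41 without a filter). Positive fold changes were seen for 2 of the 7, and for 1 all 4 Cre libraries were above all 4 controls. Apoe, the lipid carrier of glia and macrophages, was at 87.3 to 340 CPM with Cre, at 1537, 2067 and 234 CPM in the 3 controls and at 9.60 in control 3; control b lay within the Cre range.

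The summed level of the Schwann list was 814 to 2472 CPM with Cre, 3539 to 9347 CPM in controls 1, a and b and 29.2 CPM in control 3. For the fibroblast list it was 283 to 1398, 3618 to 6946 and 903 CPM, and for satellite glia 483 to 785, 913 to 2811 and 882 CPM. No marker of these 3 lists was at 0 in all 4 Cre libraries, and Prx, Egr2, Ncmap, Kcnj10 and Cdh19 were at 0 in control 3. These levels moved with the genotype in controls 1, a and b; their part in the lower genes was not tested.

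Several further cell lists had no called gene or a few of low level. No endothelial and mural marker (6 tested, 2 lower at an unadjusted p under 0.05), erythrocyte marker (4 tested, 1) or skeletal muscle marker (5 tested, 2) was called, and the muscle transcripts came from 1 library: Acta1, skeletal actin, was at 4482 CPM in control 1 and at 1.08 to 44.3 CPM in the other 7. The muscle median was -5.86, and 2.96 without control 1. The endothelial median was -2.18, and 2.14 without control 1, 1.26 without control b and 0.16 without a filter. Of 5 tested macrophage genes C1qa and Lyz2 were called higher, at 2.07 to 18.8 and 0.932 to 5.95 CPM, where 23.4% of all genes were called higher. The summed level of the macrophage list overlapped, at 5.44 to 47.1 CPM with Cre and 0.352 to 67.0 CPM in controls 1, a and b. Of the 5, 3 had at most 3 counts in each of those controls. In batch 2 the macrophage median was -2.19, with 0 of 9 tested genes positive. Of 9 tested proliferation genes Mki67 and Mcm2 were called higher, at 1.04 to 19.2 and 3.11 to 8.18 CPM, and 2 of the 9 were at that floor. However, 7 of the 9 had negative fold changes (median -2.42, and 0.26 with limma-voom), and in batch 2 0 of 10 were positive.

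Mitochondria-encoded messages, which are translated inside mitochondria and not by the tagged cytosolic ribosomes, were lower as a group. All 7 tested genes of the 13 were called lower, against 0.918% of all genes, with a median of -4.21. With control 3 in the fit none of the 7 was called under TMM and 4 were called by library totals, with medians of -4.36 and -3.72. Genes with nuclear copies can gain or lose reads in counting. mt-Nd1 was at 215, 234, 22.4 and 369 CPM with Cre and at 7060, 2713 and 685 CPM in controls 1, a and b, with 11.8 in control 3 (log2 fold change -4.16, SE 0.92, adjusted p = 0.00985). mt-Cytb was at 17.2 to 127 CPM with Cre and at 2163, 2782 and 79.3 CPM in the 3 controls, where control b overlapped with the Cre libraries. Of the noncoding list, Bc1, Meg3 and Snhg11 fell and all 7 tested members were negative (median -2.84). With control 3 only Bc1 was called under TMM, and none by library totals. Malat1, a nuclear RNA, was at 235 to 804 CPM in Cre 1 to 3 but at 11890 CPM in Cre 4, within its 7224 to 30870 CPM in controls 1, a and b, and it was not called.

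Of 81 tested nuclear-encoded oxidative phosphorylation genes, 8 rose without control 3 and none fell. The median was 0.85, which was 0.48 without Cre 3 and, with control 3, -2.59 under TMM and 0.58 by library totals. Cox6a1, Uqcr11, Uqcrq, Atp5d and Atp5g3 were among the 8, with log2 fold changes from 1.29 (Cox6a1) to 2.33 (Atp5d). Atp5g3 was at 1836 to 2113 CPM with Cre and at 860, 710 and 462 CPM in controls 1, a and b, but at 2791 CPM in control 3. The count of 8 among 81 was below the 23.4% of all genes called higher, but that 23.4% is mostly genes at the floor in controls 1, a and b. Only 2 of the 81 were at that floor. Of genes above the floor in both groups, 245 of 9752 were called higher. By library totals with control 3, 2 of 80 were called.

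For cytosolic ribosomal protein genes 1 of 82 was called (Rps12, at 4.97 to 10.7 CPM with Cre and 0 in 3 controls), and the median of 0.30 became -0.06 with RLE scaling, -0.11 without Cre 3, -0.03 without Cre 4 and, with control 3, -2.78 under TMM and 0.06 by library totals. No proteasome subunit was called (0 of 35; 1 at an unadjusted p under 0.05), with a median of 0.48 that became -1.61 with control 3 under TMM and 0.45 by library totals. Among 64 initiation and elongation factors 4 were higher, Eif2s1, Eif2ak3, Eif2s3y and Eef1akmt4, with a list median of -0.19 that became 1.67 with limma-voom, 0.15 without control 1 or b, 0.27 without control a and 0.10 with control 3 by library totals. In each of these 3 lists the share called higher was below the 23.4% of all genes. That 23.4% is mostly genes at the floor in controls 1, a and b, as were 1 of 82, 0 of 35 and 3 of 64 genes of these lists. Of genes above the floor in both groups, 245 of 9752 were called higher. Hnrnpdl was the 1 lower gene of 20 hnRNP genes, at 50.3 to 99.4 CPM against 212 to 761 CPM, with 1.94 in control 3; the list median was -0.57, 0.03 with limma-voom and 0.02 without control b. No immediate early or injury gene was called (0 of 9; 3 at an unadjusted p under 0.05).

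The lists around Ccnd2 and Fzd2 moved in both directions. Of 20 tested Wnt receptors and transducers, Fzd3 and Fzd8 (receptors) and Dvl2 (the cytoplasmic transducer Dishevelled) were called higher and Fzd2 lower. The share called higher in this list and in the cyclin list was below the 23.4% of all genes. That 23.4% is mostly genes at the floor in controls 1, a and b, as were 3 tested genes of each list. Fzd3 was at 13.5 to 46.2 CPM with Cre and at 0 in 3 controls, at least 66.2-fold higher, while Fzd8 was at 0 in Cre 3. Of 18 G1 cyclins, kinases and inhibitors, Ccne1 (cyclin E1), Rbl2 (a retinoblastoma relative) and E2f2 (a transcription factor) were higher, all at 4.31 to 18.3 CPM with Cre, and Ccnd2 was lower. Cdkn1c, a CDK inhibitor, was at 20.5 to 85.6 CPM with Cre and at 1237, 752 and 4.01 CPM in the 3 controls, with an adjusted p of 0.0606; 30.7% of its exonic bases overlap the opposite strand. The Wnt median of 0.29 became -0.08 with RLE scaling and was negative on leaving out any 1 Cre library or control b, from -0.13 to -0.08. It was 2.07 without control 1, 2.77 without control a, 3.24 with limma-voom and 0.97 without a filter. With control 3 it was 0.14 under TMM and 0.72 by library totals. The cyclin median of -0.66 became 1.19 with limma-voom, 0.64 without control 1 and 0.05 without control b.

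**Figure D3:**
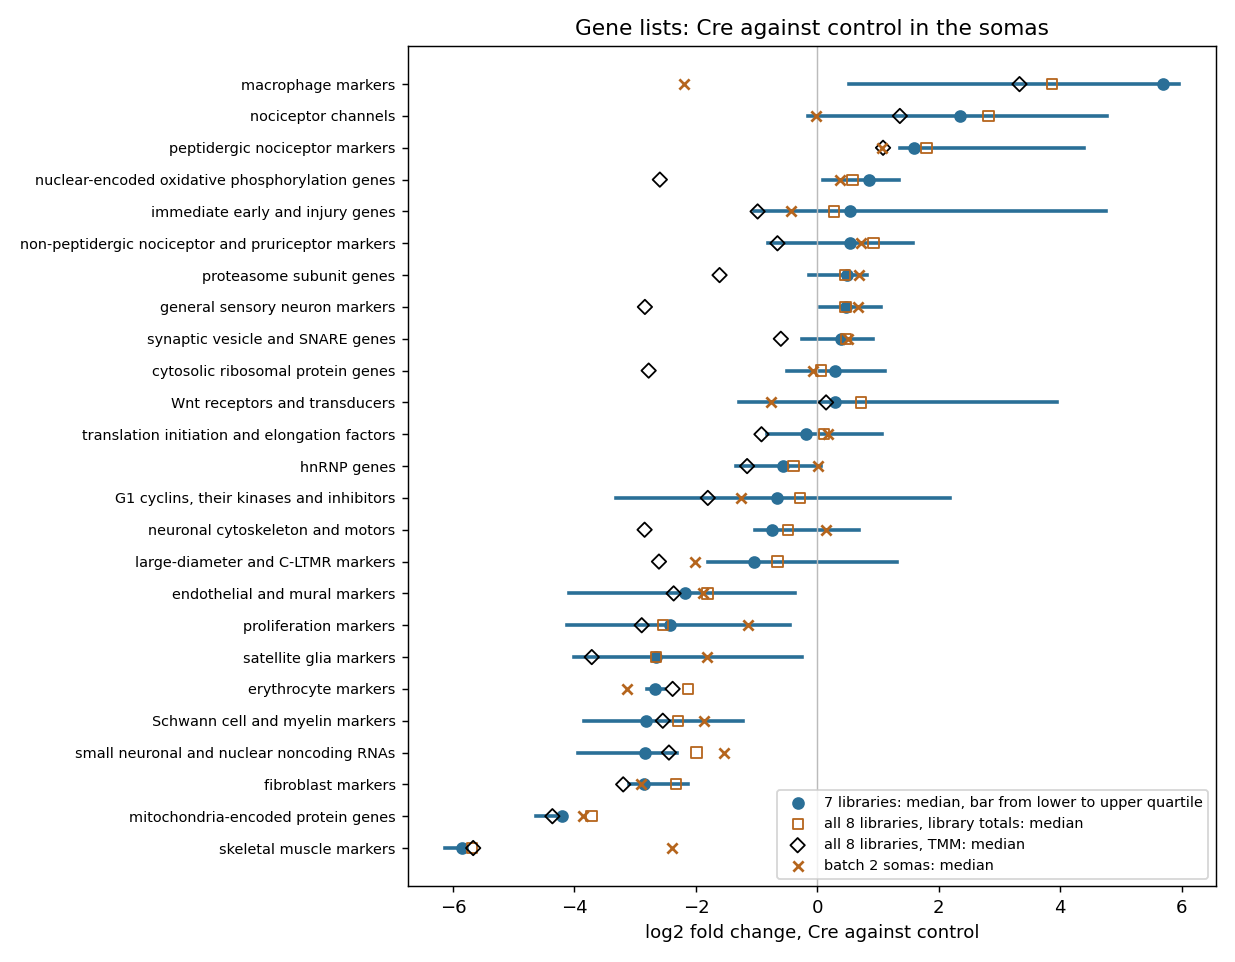
Median log2 fold change, Cre against control, of the tested members of each gene list: without control 3 (blue, bar from lower to upper quartile), with all 8 libraries under TMM (open diamonds) or scaled by library totals (open squares) and in batch 2 somas (crosses). Medians of general neuronal, ribosomal and oxidative phosphorylation lists are negative with control 3 under TMM and positive by library totals, while those of mitochondria-encoded, fibroblast and Schwann cell genes are negative in all 4.

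In batch 2, a second set of ganglia with 4 libraries of each genotype, none of 15280 genes was called by edgeR (0% of genes; 2503 at an unadjusted p under 0.05). The smallest adjusted p was 0.0510 and the biological coefficient of variation 0.692. Of the 117 genes lower in batch 1, 114 were tested there and 86 had negative fold changes, 59 of them with an unadjusted p under 0.05 and none positive at that level. Of the 2977 higher genes 2953 were tested and 1693 were positive, where 52.7% of all genes tested in batch 2 were positive; at an unadjusted p under 0.05, 161 of them were positive and 123 negative. For the 245 higher genes above the floor the count was 164 of 245.

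Ccnd2 was at 17.7 ± 6.69 CPM with Cre and 275 ± 195 CPM without in batch 2 (n = 4 each; log2 fold change -3.70, adjusted p = 0.0510), and Fzd2 at 2.78 ± 1.22 and 30.2 ± 23.0 CPM (-3.15, adjusted p = 0.0718). Sparc, Col1a1 and mt-Nd1 had log2 fold changes of -2.12, -2.94 and -3.87 there, and Ybx1 and Ybx3 of -0.23 and 0.30. Sult4a1 was at 0.92 in batch 2 against 3.44 in batch 1. Across 2286 genes with a mean of at least 100 CPM, Pearson's r of the fold changes of the 2 batches was 0.627, and across all 12596 shared genes 0.230; genes are not independent replicates, and the values within a batch share their libraries.

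**Figure D4:**
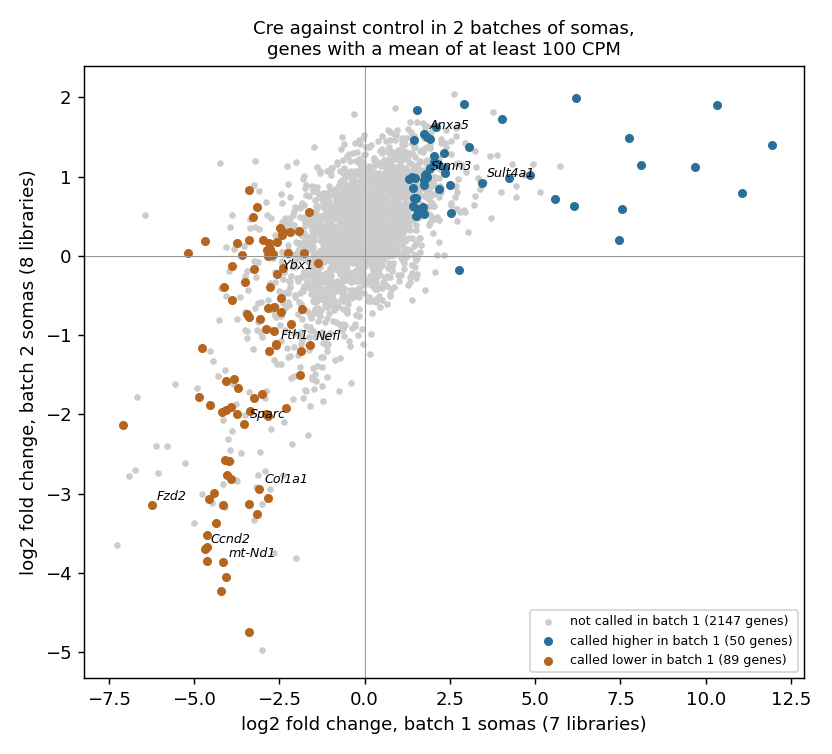
Log2 fold change, Cre against control, in batch 1 (x axis, 7 libraries) and batch 2 somas (y axis, 8 libraries) for genes with a mean of at least 100 CPM in the 7 libraries. Of the 89 genes called lower in batch 1 (brown) 66 were negative in batch 2, and of the 50 called higher (blue) 49 were positive, as were 1576 of the 2147 genes not called.

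The difference between the batches was tested as an interaction. It was called for 3636 of 15759 genes (23.1%), with 3546 (22.5%) above 0, meaning a more positive Cre effect in batch 1, and 90 (0.571%) below 0. Of the 3546, 3150 had at most 3 counts in each of the 3 batch 1 controls. With control 3 included 255 genes were called under TMM and 3557 by library totals. The 3 named genes above 0, Ydjc, Fars2 and Rcan1, were at 65.0 to 142, 21.04 to 43.7 and 121 to 294 CPM with Cre and at 0 to 0.123 CPM in controls 1, a and b; control 3 had 302 CPM of Ydjc, and 35.2% of the exonic bases of Ydjc overlap the opposite strand.

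Below 0 were Map2k4 (a stress kinase), Borcs5 (a lysosome-positioning subunit) and Gmds (an enzyme of GDP-fucose synthesis). Map2k4 was at 74.6 to 130 CPM with Cre and at 576, 414 and 415 CPM in controls 1, a and b, with 1.73 in control 3. Its log2 fold change was -2.41 in batch 1 and 0.26 in batch 2, a difference of -2.59 (adjusted p of the difference = 0.00435). Sult4a1 (difference 2.63, adjusted p = 0.0011) and Ybx1 (-2.20, adjusted p = 0.01012) also differed between the batches. For Ccnd2 (-0.88, adjusted p = 0.617) and Fzd2 (-2.88, adjusted p = 0.127) no difference was called.

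Somas were also compared with central axons of the same batch, whose fold changes come from other libraries. The interaction was called for 1111 of 16277 genes (6.83%), 1031 above 0 (6.33%) and 80 below (0.491%), and 943 of the 1031 had at most 3 counts in each of the 3 soma controls. With control 3 included no gene was called by edgeR under TMM (3133 at an unadjusted p under 0.05) or by library totals (3458). Tbcc (a tubulin folding cofactor), Tecpr1 (an autophagy protein) and Thoc3 (an mRNA export subunit) led above 0; Tbcc was at 146 to 561 CPM in the soma Cre libraries and at 0.123 CPM or less in controls 1, a and b, but at 805 CPM in control 3. Scn11a, Trpv1 and H19 led below 0. Scn11a had a log2 fold change of -0.66 in somas, and in central axons it was at 0 in the controls and at least 192-fold higher with Cre. Trpv1 had 0.67 in somas and was likewise at 0 in the central axon controls, at least 60.8-fold higher with Cre. The Cre effect on Ccnd2 was more negative in somas, with log2 fold changes of -4.69 and -0.89 (adjusted p of the difference = 0.0267), as was that on Fzd2, with -6.25 and 0.50 (adjusted p = 0.0377). Scn10a had 0.02 in somas and 4.52 in central axons, a difference with an adjusted p of 0.148.

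Among genes with a mean of at least 100 CPM, the fold change followed transcript length, a description chosen after the values were seen. The median log2 fold change was 0.89 for 195 genes whose longest annotated transcript was under 1 kb, 0.27 for 513 genes of 1 to 2 kb, -0.17 for 476 of 2 to 3 kb, -0.42 for 670 of 3 to 5 kb and -0.73 for 424 over 5 kb. In batch 2 the medians of these bins were 0.60, 0.63, 0.46, 0.22 and -0.03. With all 8 libraries they were -2.80, -2.01, -1.62, -1.59 and -1.67 under TMM, lowest for the shortest transcripts, and 0.61, 0.27, -0.01, -0.20 and -0.48 by library totals. Short transcripts took 11.02% to 15.8% of the counts of Cre libraries, 5.68% to 8.37% in controls 1, a and b and 15.1% in control 3. The share for transcripts over 5 kb was 12.3% to 20.9% with Cre, 20.2% to 24.8% in those 3 controls and 12.5% in control 3. What part of the list medians above goes with length was not tested.

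**Figure D5:**
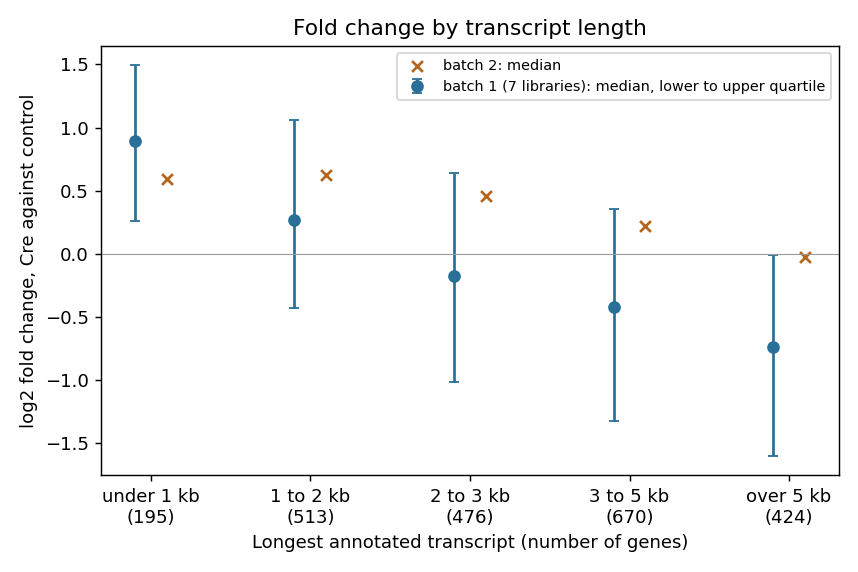
Median log2 fold change, Cre against control, by longest annotated transcript (x axis; number of genes in brackets) for genes with a mean of at least 100 CPM: batch 1 without control 3 (blue, bars from lower to upper quartile) and batch 2 (crosses). Batch 1 medians run from 0.89 under 1 kb to -0.73 over 5 kb.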

How the data were processed

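Raw gene counts were taken as the authors deposited them, in 1 table for each batch; per the file headers a column is a library. Per the labels' protocols RNA was under 1 ng for somas and libraries were made with SMART-Seq v4. STAR 2.7.2b and mm10 appear in the submitters' processing notes; counting, strand and multi-mapping rules are not given in the sources used here. All 55536 identifiers matched GENCODE M21 (GRCm38).

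Counts were fitted in R 4.3.3 with edgeR 4.0.16 (filterByExpr, minimum count 10 and total 15; TMM; quasi-likelihood test; Benjamini-Hochberg over all genes tested, threshold 0.05). CPM uses library totals. A floor of 3 counts gives 0.259 to 0.397 CPM per library; floors cover counting error only, and libraries carry no molecular identifiers. SE is the fold change over the square root of F. Where controls 1, a and b, or all central axon controls, had at most 3 counts each, a lower bound of the fold against them is given. Control 3 is not part of that bound. Fitting code was tested on simulated counts that varied less between libraries than these data do, so that test does not show how firm the calls are. limma 3.58.1, DESeq2 1.42.0 and scaling by library totals alone were alternatives. Replicate numbers 1 and 3 are shared by the genotypes. Whether they pair libraries is not settled here, and the fit described first used no pairing.

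The members, gene lists and the leaving out of control 3 were chosen with earlier results of these data known. Named genes were Scn10a, Rpl10a, Ccnd2, Fzd2 and Bc1, and further genes taken by rule. The first rule used called genes that changed by 1 or more on the log2 scale and whose 4 Cre libraries did not overlap the 4 controls. Per direction, it took the 8 with smallest adjusted p (ties by larger fold change) and the 8 most abundant. Added were the 4 most abundant members of each list and 3 genes per direction of each interaction, passing over Gm and Rik names. Some genes chosen by this rule are not reported here. Other list members are named because they were called, after their values were seen. P-values measure the spread between these libraries.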

Additional observations from a re-analysis of the deposited data

Results flagged for a closer look

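In 76 groups of 4 libraries a value was checked for a library far from the other 3, and 16 were so; chance gives about 1 in 20, but 8 of the 16 are genes at 0 in the other 3 controls, where any count in control 3 stands apart. Cre 2 had 8857 genes with at least 100 counts, above the other Cre libraries. The library labelled control 3 had 2041 such genes, and its 100 most abundant genes took 28.7% of its counts, both apart from the other controls. Control 3 also held the only counts among controls for the higher genes absent elsewhere, at 2.697 CPM for Tmem109, 0.647 for Mrgpra1, 0.324 for Tspan14, 1.08 for Tradd, 0.971 for Tnfaip8, 0.863 for Rras, 1.08 for Yrdc and 1.19 for Mpi. Rpl10a stood apart in Cre 4 (13.8 CPM) and in control a (60.2 CPM). Control 1 had 877 CPM of Anxa5, control a 6880 CPM of Nefl, and Cre 4 was low for Lxn (368 CPM). The Cre effect differed from that of batch 2 somas for 3636 genes and from that of central axons for 1111.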

How the results depend on the processing

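The count of 3094 called genes became 516 with all 8 libraries under TMM, 2244 with all 8 by library totals and 2470 with all 8 and quality weights. With a replicate block on all 8 it was 0 under TMM (30 genes at an unadjusted p under 0.05 in edgeR) and 1 by library totals (573). Only the numbers 1 and 3 occur in both genotypes, so the block compared Cre with control within those numbers alone, control 3 included. That design could call few genes, so its counts do not show how firm the 3094 calls are. Library totals for named genes, lists, the block and the differences were added after the data were seen. Leaving out 1 library gave 2294 to 4743. Whether the numbers 1 and 3 shared by the genotypes pair libraries is not settled here. Deviations of libraries numbered 1 correlated at 0.00936 and of those numbered 3 at 0.131. The other pairs of a Cre and a control library correlated at -0.165 to 0.133. Of the 57 named genes called, 3 kept the call with all 8 libraries under TMM, 30 with all 8 by library totals, 52 with RLE scaling, 54 with library size alone, 39 without a filter, 41 with limma-voom and 57 with DESeq2. The number of detected genes kept its p with other count minimums and after thinning; leaving out 1 library gave differences of 6534 to 7519 with p = 0.0571, the smallest p that 4 against 3 can give in the exact permutation test. The difference from batch 2 was called for 255 genes with control 3 under TMM, 3557 by library totals and 2376 with limma-voom. For the difference from central axons the counts were 0 with control 3 under TMM (3133 at an unadjusted p under 0.05 in edgeR) and 0 by library totals (3458), 700 without a filter and 2831 with DESeq2, and 477 to 1853 on leaving out 1 library: 477 without Cre 1 and without Cre 2, 623 without Cre 3, 582 without Cre 4, 1714 without control a and 1853 without control b. The cause of these changes was not tested.

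Signs of log2 fold changes turned for these named genes. With all 8 libraries under TMM they were -0.47 for Scn10a, -0.99 for Anxa5, -2.07 for Cox6b1, -1.94 for Selenok, -2.42 for Adap1, -6.16 for Adcyap1, -1.11 for Ret, -2.85 for Prph, -3.25 for Sncg, -2.39 for Uchl1, -2.83 for Tppp3, 0.17 for S100b, -3.28 for Cdkn2d, -3.05 for Cdkn1a, -3.51 for Stmn3, -2.22 for Stmn2, -2.84 for Vamp2, -2.74 for Rab3a, -3.10 for Rps14, -3.43 for Atp5g3, -2.43 for Uqcrq, -3.07 for Cox4i1, -3.53 for Psma7, -3.52 for Psmb6, -4.12 for Psmc5, -5.18 for Hnrnpd, -2.83 for Eif5a, -3.56 for Eif4h, -4.35 for Ydjc and -3.89 for Tbcc. With all 8 by library totals they were -1.38 for Adcyap1, 0.49 for S100b, 0.46 for Gsk3b, 0.14 for Cplx1, -0.061 for Psmc5 and -0.83 for Hnrnpd. With RLE scaling they were -0.32 for Scn10a, -0.14 for Prph, -0.0158 for Cdkn1a and -0.26 for Cox4i1; with DESeq2, -0.32 for Scn10a, -0.14 for Prph, -0.0158 for Cdkn1a and -0.26 for Cox4i1. Without a filter Scn10a was at -0.072. With limma-voom they were 2.54 for Scn9a, 0.40 for Scn11a, 2.41 for Gfra2, 0.032 for Nefh, 3.99 for Pdgfrb, 0.25 for Hba-a2, 0.45 for Hbb-bt, 0.78 for Tnnt3, 1.08 for Gsk3b, 4.87 for Dvl1, 3.18 for Birc5, 0.40 for Top2a, 1.796 for Ier2 and 0.0142 for Miat. With library size alone they were 0.0882 for S100b and 0.0574 for Gsk3b. On leaving out 1 library, ranges that crossed 0 were Scn10a -0.40 to 0.79, Scn9a -1.66 to 0.25, Scn11a -1.19 to 1.33, Tac1 -1.43 to 0.29, Gfra2 -1.43 to 1.03, Prph -0.15 to 0.91, Nefh -1.76 to 0.38, Piezo2 -1.14 to 0.42, S100b -0.41 to 0.11, Rgs5 -0.17 to 3.51, Cldn5 -4.96 to 1.87, Pdgfrb -1.59 to 7.76, Aif1 -4.40 to 6.66, C1qb -0.36 to 7.43, Acta1 -7.22 to 2.96, Tnnt3 -8.10 to 9.25, Mylpf -6.58 to 0.92, Tnni2 -6.45 to 7.62, Gsk3b -0.69 to 0.93, Dvl1 -2.21 to 11.28, Cdkn1a -0.19 to 1.75, Birc5 -4.33 to 9.43, Top2a -3.75 to 3.82, Cplx1 -0.72 to 0.38, Rps3 -0.80 to 0.27, Rps14 -0.0256 to 0.77, Cox4i1 -0.28 to 0.32, Psmc3 -0.36 to 0.16 and Hnrnpa2b1 -0.88 to 0.39.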

Other observations

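The labels used here give no sex, and genes of the sex chromosomes varied between the libraries. Eif2s3y, a Y-linked translation factor gene that is among the 4 called members of its list, had 51, 75, 256 and 195 counts in Cre 1 to 4, 0 in controls 1, a and b and 1 in control 3. Ddx3y, a Y-linked RNA helicase gene, had 94, 100, 336 and 282 counts with Cre, 780 in control 1, 2 in control a, 1 in control b and 5 in control 3. Xist, the noncoding RNA that silences an X chromosome in females, had 14, 11, 0 and 22 counts with Cre, 905 in control a and 0 in the other 3 controls. Uty and Kdm5d, also Y-linked, were above 0 in all 4 Cre libraries and at 0 in all 4 controls. The part of sex in the comparison was not tested.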
